A study of Mus musculus with 9 samples.

Results

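A set of 9 genes of phosphoinositide 3-kinase (PI3K) signaling were followed in 4T1 primary tumors: 4 class I catalytic subunits (Pik3ca, Pik3cb, Pik3cd, Pik3cg), the regulatory subunits Pik3r1 and Pik3r5, the adaptor Pik3ap1, and the inositol 5-phosphatases Inpp5d and Inppl1. These 9 of the 18755 genes in the deposited counts were chosen by name, with the difference between treated and vehicle tumors already known. This difference is therefore only described for them, and any p-value given for it carries no weight as evidence. They were split by textbook expression into 5 leukocyte genes (Pik3cd, Pik3cg, Pik3r5, Pik3ap1, Inpp5d) and 4 ubiquitous genes (Pik3ca, Pik3cb, Pik3r1, Inppl1). Bulk tumor RNA offers no check of that split cell by cell. 4T1 is a metastatic mouse mammary cancer cell line, and 1000000 cells were injected into the mammary fat pad of female BALB/c mice aged 6 to 10 weeks. From day 15 after injection, 6 mice received 50 mg/kg of the focal adhesion kinase (FAK) inhibitor BI 853520 (abbreviated BI) daily for 5 days, while 3 mice received the 0.5% Natrosol vehicle for 5 days. Each tumor gave 1 library, and the tumors are numbered as in the labels, 1 to 3 for vehicle and 4 to 9 for BI. These hosts have their own immune system, and a tumor piece holds cancer cells together with the leukocytes, fibroblasts and vessels of the host.

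Class I PI3K adds a phosphate to the membrane lipid PIP2 and makes PIP3, which recruits proteins with a PH domain, among them the AKT kinases. PIP3 is removed by phosphatases, and the 5-phosphatases SHIP1 (Inpp5d) and SHIP2 (Inppl1) turn it into another lipid messenger. The catalytic subunits p110 alpha (Pik3ca) and p110 beta (Pik3cb) are made in nearly all cells, while p110 delta (Pik3cd) and p110 gamma (Pik3cg) are known mainly from white blood cells, where they act downstream of antigen, cytokine and chemokine receptors.

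Total counts on genes ranged from 16931607 to 33850245 per tumor, so that a floor of 3 counts corresponded to at most 0.177 CPM (counts scaled to a library of 1000000). All 9 genes lay far above it in every tumor and passed the filter on low counts. Marker genes were in place for a mammary tumor with host cells: Krt8 and Krt18, keratins of glandular epithelium, had 478 and 579 CPM in vehicle tumors, although Epcam had only 2.13 CPM and the basal keratin Krt14 only 0.924 CPM. Ptprc, which encodes the pan-leukocyte surface protein CD45, had 174 CPM.

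The promoters of the 9 genes are shown first, since they differ in letters that the measurements did not use. RefSeq lists 14 start sites for these genes on GRCm38.p6, and 300 bases were read at each, 250 before and 50 after the start. The motif AGGAAGT, a core bound by ETS factors such as the myeloid regulator PU.1, was searched on both strands, together with its longer form GAGGAAGT, which contains it. AGGAAGT was found in 3 of the 8 promoters of leukocyte genes and in 0 of the 6 promoters of ubiquitous genes. The 3 belong to 2 of the 5 leukocyte genes, Inpp5d and Pik3cg, whose 2 overlapping promoters hold the same sites. AGGAAGT is present in 9.35% of all 32851 promoters in the same table, and GAGGAAGT in 3.2%. At such a share, 6 promoters are too few for their 0 to mark a difference. The Inpp5d promoter (chr1:87620062-87620361, plus strand) and the upstream one of 2 overlapping Pik3cg promoters (chr12:32208610-32208909, minus strand) follow, 5′ to 3′ on the strand of the gene. AGGAAGT or its reverse complement is in capitals.
Inpp5d: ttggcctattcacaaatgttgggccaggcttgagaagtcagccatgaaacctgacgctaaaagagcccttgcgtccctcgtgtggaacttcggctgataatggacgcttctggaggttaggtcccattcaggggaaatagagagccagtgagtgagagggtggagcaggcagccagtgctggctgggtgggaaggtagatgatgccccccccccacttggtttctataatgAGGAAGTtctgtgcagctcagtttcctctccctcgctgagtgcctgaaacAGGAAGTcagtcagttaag
Pik3cg: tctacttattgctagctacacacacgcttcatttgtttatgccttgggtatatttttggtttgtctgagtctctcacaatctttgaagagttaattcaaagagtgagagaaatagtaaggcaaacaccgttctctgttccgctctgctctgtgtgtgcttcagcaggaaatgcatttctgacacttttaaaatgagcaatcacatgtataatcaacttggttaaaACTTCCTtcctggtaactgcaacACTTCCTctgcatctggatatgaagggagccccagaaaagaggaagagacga
The matches began at positions -19 and 31 in Inpp5d and at -25 and -2 in Pik3cg, counted from the start site. In both genes 1 of the 2 matches extended to GAGGAAGT. A match of letters is a description of the sequence, and its use by any factor was not measured here.

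The promoters also differed in CG dinucleotides, which are dense at the start sites of many genes used in all tissues. The 6 promoters of ubiquitous genes held between 6 and 44 CG dinucleotides, with a median of 27, and the 8 promoters of leukocyte genes between 4 and 26, with a median of 6. Over all promoters the median was 7. The split was not clean, since the only promoter listed for Pik3ap1 and 1 of the 3 listed for Pik3cd held 26, and that of Pik3r5 held 16. On the ubiquitous side, 1 promoter of Pik3r1 held 6 and 1 of Inppl1 held 12. The medians count start sites and not genes. Several low values of the leukocyte side thus come from the same genes, Pik3cd (4 and 6) and Pik3cg (4 and 5, in overlapping windows). The Pik3cb promoter (chr9:99140162-99140461, minus strand) is the richest of the 14 and is shown with each CG in capitals.
Pik3cb: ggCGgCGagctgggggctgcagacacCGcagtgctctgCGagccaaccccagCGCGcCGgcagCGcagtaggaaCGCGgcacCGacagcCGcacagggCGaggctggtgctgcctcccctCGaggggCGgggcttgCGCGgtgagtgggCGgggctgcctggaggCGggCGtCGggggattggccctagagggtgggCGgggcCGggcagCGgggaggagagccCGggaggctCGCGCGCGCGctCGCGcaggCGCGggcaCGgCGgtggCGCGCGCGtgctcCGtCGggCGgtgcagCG

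To see how the 2 kinds of catalytic subunit compared between treated and vehicle tumors, expression was read as CPM after TMM normalization. Pik3cd (Entrez gene 18707), on chromosome 4 of mm9 from 149023277 to 149076680, had 59.9, 54.5 and 50.1 CPM in the 3 vehicle tumors and between 84.2 and 99.0 CPM in the 6 BI tumors (median 95.9). Every BI tumor was above every vehicle tumor, with a gap wider than the spread within either group. The means were 54.8 ± 4.89 (SD, n = 3) and 94.1 ± 5.89 CPM (SD, n = 6), a log2 fold change of 0.78 (standard error 0.0737). Pik3cg (Entrez gene 30955), on chromosome 12 from 32858338 to 32893524, had 30.6, 28.9 and 29.0 CPM in vehicle tumors and between 48.2 and 60.5 CPM in BI tumors (median 53.7). The groups again did not overlap, and the vehicle tumors were the tightest of any of the 9 genes, with an SD of 0.965 CPM. The log2 fold change of Pik3cg was 0.88 (standard error 0.0838).

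The ubiquitous catalytic subunits showed small differences of opposite sign. Pik3ca (Entrez gene 18706), on chromosome 3 from 32296593 to 32367408, encodes the subunit that is often mutated in breast cancer. It had 171, 155 and 161 CPM in vehicle tumors and between 143 and 158 CPM in BI tumors (median 146). In 5 of 6 BI tumors it lay below every vehicle tumor, and the log2 fold change was -0.13 (95% confidence interval -0.25 to -0.02). Pik3cb (Entrez gene 74769), on chromosome 9 from 98938821 to 99041040, had 23.4, 20.8 and 22.9 CPM in vehicle tumors and between 23.9 and 28.5 CPM in BI tumors (median 25.3). Its groups did not overlap either, although the lowest BI tumor exceeded the highest vehicle tumor by little. The log2 fold change of Pik3cb was 0.20 (95% confidence interval 0.03 to 0.37). Neither gene passed the threshold described below for all genes.

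The plot of the 9 genes by tumor shows these values.

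**Figure D1:**
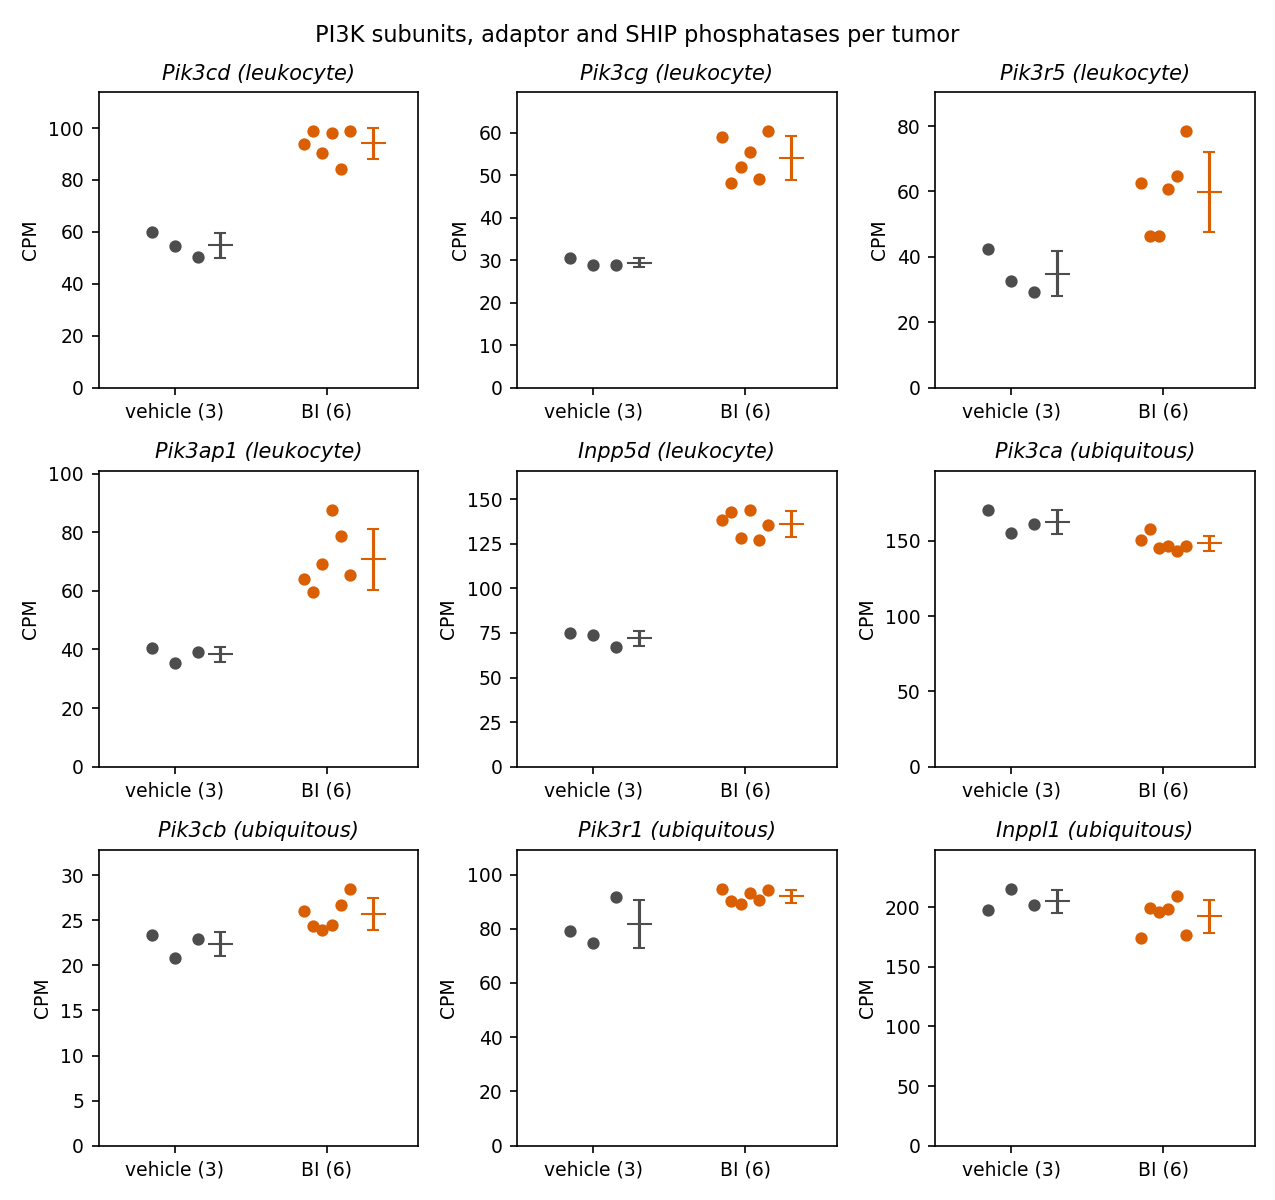
Normalized expression (CPM, linear axes from 0) of the 9 genes in 3 vehicle tumors (gray) and 6 BI tumors (orange), 1 point per tumor, with the mean and SD beside the points. In the 5 leukocyte genes, from Pik3cd to Inpp5d, all BI tumors sit above all vehicle tumors, whereas Pik3ca, Pik3r1 and Inppl1 overlap between the groups and Pik3cb is separated by a narrow gap.

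The regulatory subunits followed the same division. Pik3r5 (Entrez gene 320207), on chromosome 11 from 68245623 to 68311351, encodes p101, the partner that couples p110 gamma to G protein beta-gamma subunits. It had 42.5, 32.7 and 29.3 CPM in vehicle tumors and between 46.5 and 78.6 CPM in BI tumors (median 61.6). All BI tumors were higher, but Pik3r5 varied most among the 9 genes relative to its mean, with 59.9 ± 12.2 CPM in BI tumors (SD, n = 6), and its log2 fold change of 0.78 had the largest standard error (0.17). Pik3r1 (Entrez gene 18708), on chromosome 13 from 102450716 to 102538172, encodes p85 alpha, the regulatory partner of p110 alpha, beta and delta. It had 79.2, 74.6 and 91.7 CPM in vehicle tumors and between 89.0 and 94.8 CPM in BI tumors (median 92.0). Vehicle tumor 3 lay inside the range of the BI tumors, and the log2 fold change was 0.17 (95% confidence interval 0.03 to 0.31). Without vehicle tumor 3, Pik3r1 had a log2 fold change of 0.26 and an adjusted p of 0.0139 (edgeR, quasi-likelihood), under the threshold for all genes. That value describes how much 1 tumor mattered and is no evidence of a difference. An exon of the gene model Gm11016 overlaps Pik3r1 on the other strand.

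Pik3ap1 (Entrez gene 83490), on chromosome 19 from 41346863 to 41459586, encodes BCAP, an adaptor of B cells and myeloid cells whose tyrosines dock p85. It had 40.4, 35.5 and 39.0 CPM in vehicle tumors and between 59.8 and 87.7 CPM in BI tumors (median 67.3). The groups did not overlap, and the log2 fold change was 0.89 (standard error 0.114).

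The SHIP phosphatases, which are close relatives, differed from each other in the same way. Inpp5d (Entrez gene 16331), on chromosome 1 from 89516887 to 89617082, had 74.9, 73.9 and 67.3 CPM in vehicle tumors and between 127 and 144 CPM in BI tumors (median 137). Each BI tumor had over 1.5 times as much as any vehicle tumor, and the log2 fold change of 0.92 (standard error 0.0633) was the largest of the 9 genes. Inppl1 (Entrez gene 16332), on chromosome 7 from 108971147 to 108986740, had 197, 216 and 202 CPM in vehicle tumors and between 174 and 209 CPM in BI tumors (median 197). The groups overlapped, and the log2 fold change was -0.09 (95% confidence interval -0.24 to 0.06). Exons of Phox2a and Gm10602 overlap Inppl1 on the other strand, and the use of strand in the counting is not given in the sources used here. Per length, the ratio of Inpp5d to Inppl1 RNA was 0.344 to 0.392 in vehicle tumors and 0.626 to 0.818 in BI tumors.

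All 5 leukocyte genes and none of the 4 ubiquitous genes passed a Benjamini-Hochberg adjusted p of 0.05 in edgeR's quasi-likelihood test over 13966 genes. Of all genes tested, 14.6% passed with higher and 14.1% with lower expression in BI tumors, or 28.7% in all, and in 14.1% every BI tumor was above every vehicle tumor. Because the 9 genes were named with this contrast known, these counts describe them and carry no weight as evidence. The median log2 fold change was 0.88 over the 5 leukocyte genes and 0.04 over the 4 ubiquitous genes, beside -0.00371 over all genes tested, of which 834 (5.97%) had a value of at least the former median. The mean log2 CPM of the leukocyte genes minus that of the ubiquitous genes was -1.02 ± 0.125 in vehicle tumors (SD, n = 3) and -0.22 ± 0.0983 in BI tumors (SD, n = 6), a difference of 0.81 between the groups. Its ranges, -1.16 to -0.91 and -0.35 to -0.10, did not overlap. Pik3ca passed, as a lower gene, only when BI tumor 5 was left out (log2 fold change -0.15, adjusted p = 0.044, edgeR). In bulk tumors a change in the number of leukocytes, a change in RNA per leukocyte and a change in other cells cannot be told apart.

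Levels were compared between genes per length, as RPKM (CPM divided by the deposited gene length in kilobases). In vehicle tumors Inppl1 was highest at 40.2 ± 1.86 RPKM, followed by Pik3ca at 18.2 ± 0.889. Pik3ap1 (14.6 ± 0.975) and Inpp5d (14.6 ± 0.836) came next and did not differ beyond their spread, as was the case for Pik3r1 (11.1 ± 1.2) and Pik3cd (10.1 ± 0.906). Pik3r5 had 7.99 ± 1.57, Pik3cb 4.61 ± 0.277 and Pik3cg 4.24 ± 0.139 RPKM (all SD, n = 3). In BI tumors Inppl1 was still highest at 37.7 ± 2.7 RPKM, but Inpp5d (27.6 ± 1.47) and Pik3ap1 (27.1 ± 3.99), which had been below Pik3ca in vehicle tumors, were above it (16.6 ± 0.577). Pik3cd had 17.4 ± 1.09 RPKM (all SD, n = 6). The order of Pik3cd and Pik3ca was thus within the spread in BI tumors, whereas Pik3ca had been clearly higher in vehicle tumors.

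The catalytic subunits were also expressed as shares of their summed RPKM in each tumor. Pik3ca held 48.4% to 49.9% in vehicle tumors and 33.3% to 36.9% in BI tumors. Pik3cd held 25.6% to 28.1% in vehicle tumors and 35.2% to 38.2% in BI tumors, and Pik3cg 11.1% to 11.6% and 14.4% to 17.7%. Together, the leukocyte subunits Pik3cd and Pik3cg made up 38.7% ± 1.36 of class I catalytic RNA in vehicle tumors (SD, n = 3) and 53.4% ± 1.39 in BI tumors (SD, n = 6), and the ranges of 37.1% to 39.6% and 51.2% to 54.9% lay far apart. The sum of Pik3ca and Pik3cb was 22.8 ± 1.14 RPKM in vehicle tumors (SD, n = 3) and lay between 21.2 and 22.7 RPKM in BI tumors, so that the shift of shares came with a total that went from 37.2 ± 1.96 to 47.1 ± 1.89 RPKM.

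**Figure D2:**
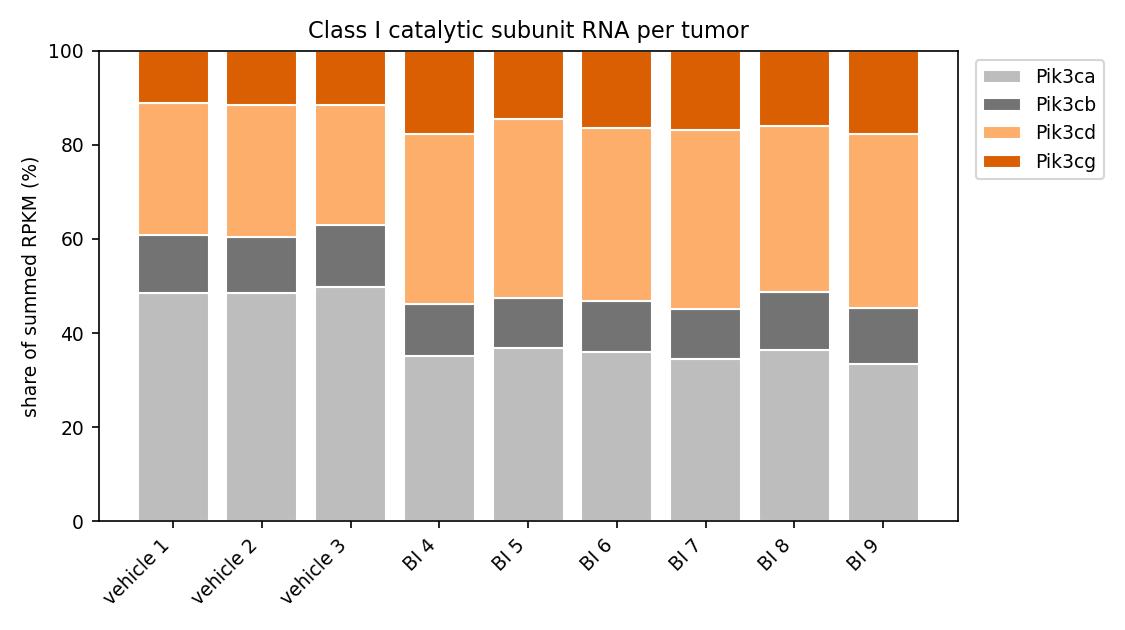
Share of each class I catalytic subunit (percent of the summed RPKM of Pik3ca, Pik3cb, Pik3cd and Pik3cg) in each of the 9 tumors. The light and dark orange parts, Pik3cd and Pik3cg, together take 37.1% to 39.6% of each vehicle bar and 51.2% to 54.9% of each BI bar.

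The level of the leukocyte genes was set beside leukocyte marker genes in the same tumors. All 10 pan-leukocyte markers (Ptprc, Cd53, Laptm5, Coro1a, Cd52, Arhgdib, Itgb2, Cd37, Cd48, Rac2) rose in edgeR's test, their summed level lay between 1356 and 1490 CPM in vehicle and between 1940 and 2304 CPM in BI tumors, and none of them was at 0. Their median log2 fold change was 0.66, from 0.29 for Itgb2 to 0.96 for Cd48. The mean log2 CPM of the 5 leukocyte genes minus that of the markers was -1.25 ± 0.0133 in vehicle tumors (SD, n = 3) and -1.01 ± 0.0453 in BI tumors (SD, n = 6), a difference of 0.24 with no overlap. The same difference was 0.12 with Ptprc alone as the marker and -0.066 with 8 macrophage markers, a list tried after the values were seen, so that its sign depends on the markers chosen. Relative to the 10 markers, each of the 4 ubiquitous genes was lower in all 6 BI tumors than in any vehicle tumor. The differences ran from -0.40 (Pik3cb) to -0.73 (Pik3ca) on the log2 scale. The marker mean itself was 0.60 higher in BI tumors without overlap, so subtracting it lowers any gene that differed little between the groups. The share of all genes that separate after this subtraction was not computed, for either direction. Of the leukocyte genes, Inpp5d (0.31), Pik3cg (0.27) and Pik3cd (0.18) were higher relative to the markers in all 6 BI tumors, Pik3ap1 (0.27) in 5 and Pik3r5 (0.17) in 3. The part of leukocyte content in the values of the 5 genes was not tested.

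**Figure D3:**
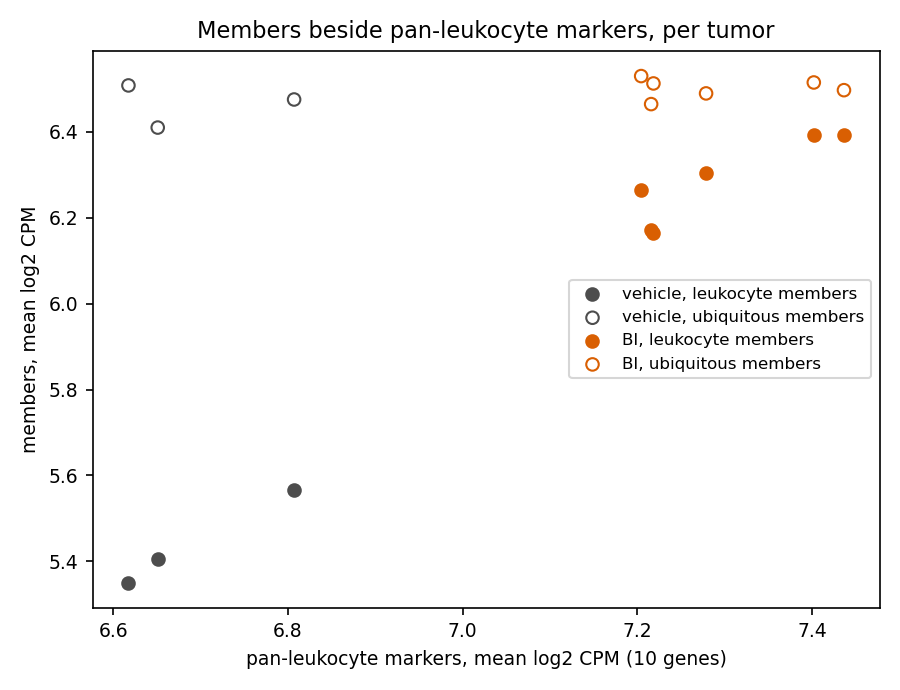
Mean log2 CPM of the 5 leukocyte genes (filled) and the 4 ubiquitous genes (open) against the mean log2 CPM of 10 pan-leukocyte markers, 1 pair of points per tumor (gray, vehicle; orange, BI). The filled points lie between 5.35 and 5.57 in vehicle and between 6.17 and 6.39 in BI tumors, while the open points stay between 6.41 and 6.53 in all 9 tumors.

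The other marker lists did not move alike. All 8 macrophage markers rose, with a median log2 fold change of 0.92 and a summed level of 1693 to 2219 CPM in vehicle and 3340 to 4039 CPM in BI tumors. All 6 T cell markers rose (median 1.10; 50.5 to 53.1 and 88.8 to 127 CPM), and so did 4 of 5 natural killer (NK) cell markers (median 1.27; 26.9 to 37.5 and 68.9 to 90.7 CPM) and 4 of 5 mast cell markers (median 3.10; 11.1 to 29.0 and 27.9 to 325 CPM). Of 5 neutrophil markers, S100a8, S100a9 and Cxcr2 fell and none rose (median -0.91; 1064 to 1225 and 361 to 827 CPM). B cell markers were scarce, at 4.52 to 8.02 CPM in vehicle and 5.80 to 11.2 CPM in BI tumors, with 2 of the 4 tested rising and Ms4a1 and Pax5 at 0 counts in at least 1 tumor. Neutrophils are known to express Pik3cg and Pik3cd as well, so that the leukocyte genes stand beside marker lists of both signs. Among markers of other cells, 2 of 6 epithelial markers fell (Krt8, Krt18; median over the list -0.07; 960 to 1185 and 755 to 962 CPM), 1 of 5 fibroblast markers rose (Col1a2; median 0.57; 1377 to 2325 and 1879 to 3805 CPM) and 2 of 4 endothelial markers rose (Cdh5, Kdr; median 0.40; 142 to 157 and 161 to 228 CPM). Several of these counts rested on single tumors. With a tumor left out, 1 to 2 epithelial markers fell, since Krt8 did not pass without vehicle tumors 1 or 2 or BI tumors 6, 7, 8 or 9 (adjusted p = 0.0651 to 0.195, edgeR), and Epcam passed as higher without BI tumor 4. Between 0 and 2 fibroblast markers rose, with 0 without vehicle tumors 1 or 2 or BI tumors 4, 7, 8 or 9 (Col1a2, adjusted p = 0.0569 to 0.161, edgeR) and 2 without vehicle tumor 3 or BI tumors 5 or 6. Between 0 and 4 endothelial markers rose, with 0 without vehicle tumor 3, 1 without vehicle tumors 1 or 2, 3 without BI tumor 6 and 4 without BI tumor 8. Between 0 and 2 B cell markers rose, with 0 without vehicle tumors 2 or 3 or BI tumor 7 and 1 without vehicle tumor 1 or BI tumors 5, 8 or 9. In the other lists the counts moved by 1 at most, with losses for Cd37 (without vehicle tumors 2 or 3), Mrc1 and Cd5 (each without vehicle tumors 1 or 3) and Ncr1 (without vehicle tumors 1, 2 or 3 or BI tumor 9). The part of these cell types in the values of the 9 genes was not tested.

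Variation among the 6 BI tumors is separate from the contrast that chose the genes, and it was used to ask whether a gene followed the pan-leukocyte markers from tumor to tumor. Pearson's r with the markers was between 0.40 (Pik3ap1) and 0.73 (Pik3cg) for the 5 leukocyte genes and between -0.41 (Inppl1) and 0.73 (Pik3r1) for the 4 ubiquitous genes. None of the 9 relations passed (exact permutation test over 720 orders, two-sided, smallest unadjusted p = 0.128 for Pik3r1, smallest adjusted p = 0.422), and before adjustment the number below 0.05 was 0. For Pik3cg, r was 0.73 (exact p = 0.14), Spearman's rho 0.66 (exact p = 0.175) and r without the 2 tumors farthest from the median, BI tumors 7 and 9, 0.93. Values as large were seen without these 2 tumors in ubiquitous genes, 0.92 for Pik3r1 and -0.98 for Inppl1, so they were not particular to leukocyte genes. For Pik3ap1, r went from 0.40 to -0.45 without the same 2 tumors, so that its sign rests on them. The 6 tumors thus could not show whether any of the 9 genes followed leukocyte RNA within the treated group.

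By the pattern that remained after centering each group, over 9 tumors and 10360 genes with a mean log2 CPM of at least 3, the genes most like Pik3cg were Birc3 (r = 0.98), Chac2 (0.97) and Msr1 (0.96), and those most like Inpp5d were Camta2 (0.95), Ccdc28a (0.94) and Acox3 (0.92). With so many genes and 9 tumors, such values also arise between unrelated genes. Among the 5 leukocyte genes themselves, the centered correlation had a median of 0.26 over 10 pairs (range -0.17 to 0.87), against -0.12 over 6 pairs of ubiquitous genes (range -0.57 to 0.46), so that the leukocyte genes differed together between the groups but did not all move together within them.

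To place the 9 genes in their pathway, 85 other genes were taken by family and role, of which 84 were tested and Pik3c2g was too low. Of these, 31 rose (36.9%, beside 14.6% of all genes tested) and 7 fell (8.33%, beside 14.1%) by the same edgeR threshold, with a median log2 fold change of 0.09 over the 84. The groups did not overlap in 30 of the 31 that rose and in 5 of the 7 that fell, beside 14.1% and 14% of all genes. The lists were written with earlier results of these data known. Leaving out each tumor in turn, 24 of the 38 genes passed every time.

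**Figure D4:**
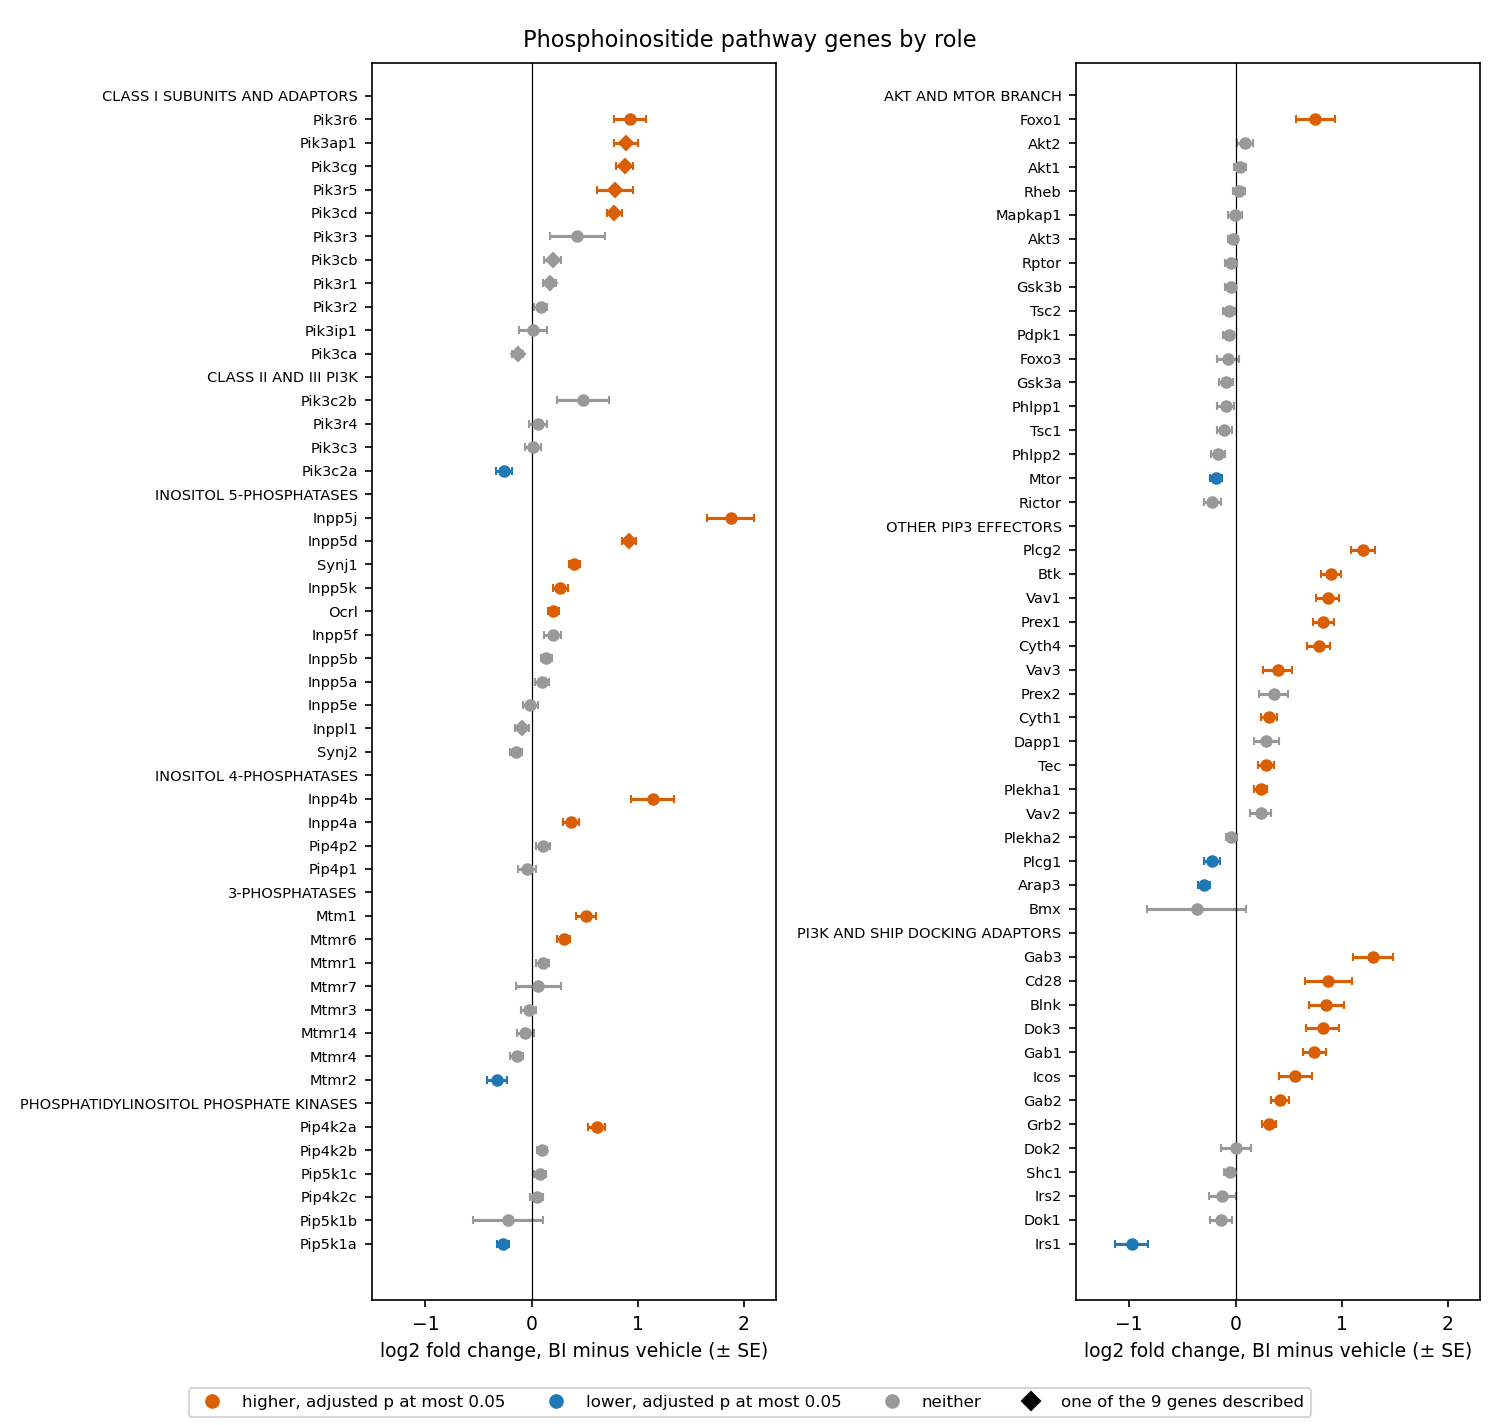
Log2 fold change (BI minus vehicle, with its standard error) of the 9 genes (diamonds) and of other pathway genes (circles), grouped by role and ordered within each group. Orange marks genes that rose, blue genes that fell and gray genes that did neither at an adjusted p of 0.05. The AKT and mTOR branch is almost all gray, while most of the other PIP3 effectors and docking adaptors are orange. Over all genes tested, 28.7% passed in either direction.

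Of the other class I subunits and regulators, 1 of 4 rose. Pik3r6 encodes p84, the second regulatory partner of p110 gamma, and had 6.10, 8.41 and 6.89 CPM in vehicle tumors and between 10.8 and 17.1 CPM in BI tumors. It rose by 0.92 on the log2 scale (standard error 0.15, adjusted p = 0.000954, edgeR). The known partners of p110 gamma therefore both had higher RNA in all 6 BI tumors, and Pik3r5 made up 74.3% to 83.8% of their summed RPKM in vehicle and 70.9% to 81.5% in BI tumors. Pik3r2, which encodes p85 beta and was the most abundant of this list outside the 9 genes, had 58.0 CPM in vehicle and 61.4 CPM in BI tumors (adjusted p = 0.32, edgeR). Among the class II and III kinases, which act on other lipids, Pik3c2a fell by 0.26 on the log2 scale (adjusted p = 0.0234, edgeR; 0.132 without vehicle tumor 3 and 0.0506 without BI tumor 8), and Pik3c3, Pik3r4 and Pik3c2b did not pass.

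Inositol phosphatases were examined next, listed by family and name, and not all of them act on PIP3 or its products. Among 9 genes listed as inositol 5-phosphatases besides the SHIP genes, 4 rose and none fell. Inpp5j, a phosphatase of PIP2 and PIP3, had 1.47, 1.52 and 2.33 CPM in vehicle tumors and between 5.48 and 8.90 CPM in BI tumors. Its rise of 1.87 on the log2 scale (standard error 0.222, adjusted p = 0.000133, edgeR) was the largest of the 84 genes. Synj1, a synaptojanin of vesicle recycling, rose by 0.40, and smaller rises were seen for Inpp5k (0.27) and Ocrl (0.21), which lost their call without vehicle tumor 2 or 3 (Inpp5k, adjusted p = 0.0545 and 0.0579, edgeR) or without vehicle tumor 1 or 3 (Ocrl, 0.0644 and 0.0519).

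Of 4 inositol 4-phosphatases, 2 rose and 2 passed in neither direction, Pip4p2 (log2 fold change 0.11) and Pip4p1 (-0.04). The 2 that act on the product of the SHIP enzymes rose, Inpp4a by 0.37 and Inpp4b by 1.14 (adjusted p = 0.004 and 0.00173, edgeR). Inpp4b is known as a tumor suppressor of the mammary gland, and it had 2.64 to 3.48 CPM in vehicle and 4.74 to 8.93 CPM in BI tumors. On a list of 9 3-phosphatases, 3 rose and 1 fell, and the rises included those of the myotubularins Mtm1 (0.51) and Mtmr6 (0.30). Mtmr2, the most abundant of that list, fell by 0.32 (adjusted p = 0.0226, edgeR; 0.0759 without vehicle tumor 1 and 0.114 without vehicle tumor 3). Of 6 kinases that make PIP2, Pip4k2a rose by 0.61 and Pip5k1a fell by 0.27 (adjusted p = 0.000257 and 0.0037, edgeR).

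In the AKT and mTOR branch, the best known arm below PIP3, 15 of 17 genes passed in neither direction. Of the 17, 1 rose and 1 fell (5.88% each, beside 14.6% and 14.1% of all genes tested). Most genes tested passed in neither direction, so this count by itself does not set the branch apart. Akt1, the most abundant gene of the list, had 458, 446 and 434 CPM in vehicle tumors and between 427 and 485 CPM in BI tumors, which gave a log2 fold change of 0.04 (95% confidence interval -0.08 to 0.17). Foxo1, a transcription factor that AKT keeps out of the nucleus, rose by 0.75, from 63.6, 77.0 and 74.9 CPM to between 91.6 and 177 CPM (adjusted p = 0.00976, edgeR; 0.0514 without vehicle tumor 1). Mtor fell by 0.18 (adjusted p = 0.0265, edgeR), and its call was lost without vehicle tumor 1 (0.117), vehicle tumor 3 (0.0917) or BI tumor 8 (0.0568). The activity of these proteins, which is set by phosphorylation, was not measured by RNA.

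Among 17 other PIP3 effectors, 10 rose and 2 fell. The rises included the Tec kinase Btk (0.90), which works below the B cell receptor, the Rac activators Vav1 (0.87) and Prex1 (0.83), and Cyth4 (0.78), an activator of ARF proteins. Plcg2, the phospholipase C gamma of B cells and myeloid cells, had 80.3, 81.0 and 84.3 CPM in vehicle tumors and between 156 and 233 CPM in BI tumors. It rose by 1.20 (standard error 0.11, adjusted p = 3.59e-05, edgeR). Its widely expressed relative Plcg1 had 111, 125 and 135 CPM in vehicle tumors and between 97.0 and 113 CPM in BI tumors, and it fell by 0.22 (adjusted p = 0.0441, edgeR). The fall of Plcg1 is weak, since 6 of the 9 fits with a tumor left out did not pass, among them those without vehicle tumor 2 (0.114), vehicle tumor 3 (0.216) and BI tumor 4 (0.0743). Arap3, a PIP3-dependent GTPase-activating protein, fell by 0.29 (adjusted p = 0.00241, edgeR), with all 6 BI tumors below every vehicle tumor. Vav2, the widely expressed relative of Vav1, had a log2 fold change of 0.24 (adjusted p = 0.0862, edgeR), and Vav3 rose by 0.40 with a call that was lost in 6 of 9 such fits, without each vehicle tumor (0.166, 0.0909 and 0.104) and without BI tumors 6 (0.0738), 7 (0.0771) and 8 (0.0569). The rises of Tec (0.29), Plekha1 (0.24) and Cyth1 (0.31) were smaller.

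Docking adaptors bring PI3K or SHIP to receptors, and 9 of 14 rose. Gab3, a macrophage adaptor, rose by 1.29 from 1.47 to 1.56 CPM in vehicle tumors to between 3.26 and 4.75 CPM in BI tumors (adjusted p = 0.00047, edgeR), Gab1 by 0.74 and Gab2 by 0.42. Dok3, which links immune receptors to SHIP1, rose by 0.82 (adjusted p = 0.00225, edgeR), while its relatives Dok1 and Dok2 had log2 fold changes of -0.14 and 0.00467 (adjusted p = 0.33 and 0.984). Dok2 was the most abundant gene of this list per length, with 107 CPM in both groups. Blnk (0.85), Cd28 (0.87), Icos (0.56) and Grb2 (0.32) rose as well. Irs1, the adaptor of the insulin and IGF1 receptors, moved the other way, from 22.1, 23.0 and 30.8 CPM in vehicle tumors to between 10.7 and 16.1 CPM in BI tumors. It fell by 0.98 (standard error 0.152, adjusted p = 0.000715, edgeR), the largest fall of the 84 genes, without overlap and in every fit with a tumor left out.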

How the data were processed

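RNA of 9 4T1 tumors (3 vehicle, 6 BI) was sequenced from stranded messenger RNA libraries. Per the study's methods, the authors aligned the reads to mm9 with STAR, kept single alignments, used QuasR to count reads per RefSeq gene by their start within exons, and deposited the raw counts with a gene length. Tumors with poor RNA had been left out. Whether strand was used is not given in the sources used here. Entrez identifiers gave 18700 of 18755 genes a RefSeq symbol, and mm9 positions are those of GENCODE. Promoters are those of RefSeq on GRCm38.p6.

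BI and vehicle counts were compared by the quasi-likelihood F test of edgeR 4.0.16 (R 4.3.3) after TMM and filterByExpr (min.count 10, min.total.count 15), without covariates. The procedure was also run on simulated counts, with far fewer changed genes than passed here and a single size of change. That run does not give the error rate in these data. TMM factors were 0.984 to 1.02. Standard errors were derived from the F statistic. Log2 CPM used a prior count of 2, and RPKM is CPM divided by the deposited length. Replicate pairs differed by more than counting error (mean chi-square per gene of at least 8.83), so each tumor counted as 1 replicate. No source ties the tumors to a library or sequencing batch.

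The 9 genes and all lists were chosen with earlier results of these data known. Genes named besides the 9 were those of the pathway lists that passed, the most abundant of each list per length, markers, and the 3 nearest patterns of a gene, while further genes that did not pass were named as relatives of these after their values were seen. Alternatives were RLE or library size normalization, no filter, DESeq2 1.42.0, limma-voom 3.58.1, the study's cutoffs, a prior count of 0.5, medians, other markers, Spearman correlation, and leaving out each tumor. Macrophage markers, and marker counts without each tumor, were added after seeing the data. The neutrophil marker Ly6g and protein sequences were not analysed here. Single values of some listed genes are not reported here, although the counts include them.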

Additional observations from a re-analysis of the deposited data

Results flagged for a closer look

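Of 50 values tested in the 6 BI tumors for 1 tumor far from the rest, 1 stood out, where chance gives about 1 in 20. Blnk, an adaptor of the B cell receptor, had 9.18 CPM in BI tumor 5 and at least 13.9 CPM in the other 5, a gap of 0.873 of the range on the log2 scale, above Dixon's critical value for 6 samples. BI tumor 5 was still above the highest vehicle tumor (8.34 CPM).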

How the results depend on the processing

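The 5 leukocyte genes passed, and kept their direction, under RLE, library size, no filter, DESeq2, limma-voom, the cutoffs of the study (unadjusted p with a minimum fold change) and without each tumor. Since the genes were named with this contrast known, these passes describe how little the values depended on processing. They are no evidence of a difference. Members passing as higher numbered 5 to 6 and as lower 0 to 1 with a tumor left out, the additions being Pik3r1 without vehicle tumor 3 and Pik3ca without BI tumor 5. Over all genes, 2040 rose and 1973 fell. The cutoffs of the study gave 1339 and 499 genes, and 17 rising and 1 falling gene outside the members in place of 31 and 7. With a tumor left out, 1332 to 2026 genes rose and 1172 to 1980 fell over all genes, both lowest without vehicle tumor 3, and 1289 fell without vehicle tumor 1. Outside the members, 24 to 32 rose and 3 to 8 fell, the falling genes numbering 3 without vehicle tumor 3 and 4 without BI tumor 8; all 14 genes that lost a call did so without at least 1 vehicle tumor. Among them were Cd28 without vehicle tumor 2 (adjusted p = 0.0531, edgeR), Icos without vehicle tumor 2 or 3 (0.0774, 0.061), Cyth1 without vehicle tumor 3 (0.0535), Plekha1 without vehicle tumor 1 (0.0621) and Tec without vehicle tumor 1 or 3 (0.0543, 0.083). Plcg1 did not pass without the filter, nor did Vav3 with limma-voom. The level of the leukocyte genes over the pan-leukocyte markers differed by 0.24, by 0.34 with medians, by 0.12 with Ptprc alone and, reversed, by -0.066 with macrophage markers, and by 0.23 to 0.25 with a tumor left out. The cause of these shifts was not tested. The difference between leukocyte and ubiquitous members stayed between 0.74 and 0.87, and that of the catalytic share between 14.0 and 15.2 percentage points, over every alternative run. No relation within BI tumors passed under any alternative. No paired analysis was possible because the labels give each tumor its own number and share none between the groups. Depth limited mainly genes under 1 CPM.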
